A study of Mus musculus with 24 samples.

Results

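Zones 4 and 5 are the neighbouring hepatocyte populations at the middle of the mouse liver lobule, and their comparison used 6 of the 24 arrays of the study, 3 per zone. The zone was taken from the sample title, and the arrays were paired by mouse. All hepatocytes came from untreated male C57BL/6J mice aged 3 months, fed freely and kept in a reversed light cycle. From each of the 3 mice, viable tetraploid hepatocytes were gated on the surface proteins CD73, which marks the pericentral side, and E-cadherin, which marks the periportal side, with CD45-positive and CD31-positive cells depleted beforehand. Zone 1 was the most pericentral of the 8 populations and zone 8 the most periportal, so zone 4 ends the pericentral side and zone 5 begins the periportal side. Each array held Cy3-labelled RNA of 50000 cells of 1 population of 1 mouse. Neighbouring gates on a continuous staining are a proxy for position, and zone numbers are ranks, not distances. Each mouse had a slide of its own, with zones 1 to 4 in row 1 of its arrays and zones 5 to 8 in row 2. Zone 4 and zone 5 therefore differed in slide row in every mouse, and zone and row cannot be told apart in this comparison.

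MicroRNAs (miRNAs) are short RNAs cut from hairpin precursors. Each precursor can give a 5p and a 3p arm, and the arm loaded into an Argonaute protein lowers the output of messenger RNAs that pair with its seed, bases 2 to 8. Oxygen, nutrients, hormones and Wnt signals change across the lobule, and hepatocytes divide tasks such as glucose production, bile acid synthesis and nitrogen handling by position. The comparison asked which miRNAs differ between hepatocytes on either side of the midline.

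The sequences of the 8 miRNAs that passed the test are printed first, since they show which of them could act on the same targets. The mature sequences are from RefSeq (GRCm38.p6), 5′ to 3′, with the seed in capitals.
miR-31-5p: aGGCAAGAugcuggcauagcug
miR-31-3p: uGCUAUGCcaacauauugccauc
miR-125a-5p: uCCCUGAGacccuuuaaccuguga
miR-125b-5p: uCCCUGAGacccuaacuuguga
let-7e-5p: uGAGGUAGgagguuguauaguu
miR-99a-5p: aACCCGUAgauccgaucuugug
miR-802-5p: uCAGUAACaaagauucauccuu
miR-721: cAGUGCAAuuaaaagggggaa
miR-125a-5p and miR-125b-5p share 1 seed, and the other 6 each have a seed of their own among the 8. Close relatives that did not pass are printed for comparison, since a probe may read more than 1 of a near-identical pair.
let-7a-5p: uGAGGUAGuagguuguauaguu
let-7c-5p: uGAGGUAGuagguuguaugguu
miR-100-5p: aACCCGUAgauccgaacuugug
miR-130a-3p: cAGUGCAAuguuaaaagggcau
Counted from the 5′ end, let-7e-5p differs from let-7a-5p by G9U alone and from let-7c-5p by G9U and A19G, the base of let-7e-5p standing first. miR-99a-5p differs from miR-100-5p by U16A alone. miR-125a-5p and miR-125b-5p are identical at 15 of the 22 positions compared without gaps.

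The hairpin of miR-31 lies at chr4:88910557-88910662 on the minus strand, within the span of the long non-coding RNA gene Gm49890. Those of let-7e (chr17:17830352-17830444) and miR-125a (chr17:17830812-17830879) start 460 bases apart on the plus strand within the span of the protein-coding gene Spaca6. miR-99a (chr16:77598936-77599000) and let-7c-1 start 721 bases apart. miR-125b-5p comes from a pair of genes, of which Mir125b-1 (chr9:41581926-41582002) lies within the long non-coding RNA gene Mir100hg. The other, Mir125b-2, lies on the chromosome and strand of miR-99a, with its mature sequence at chr16:77646279-77646300. Mir721 (chr5:136375716-136375803, minus strand) lies within the span of Cux1, and no gene of the RefSeq table spans Mir802 (chr16:93369720-93369816). These positions come from RefSeq on GRCm38.p6. The deposited files name miRNAs without coordinates.

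Levels below are scaled signals, the intensity of a miRNA on an array after division by a high percentile of that array and return to the original range, and differences are log2 of zone 5 over zone 4. The signal per molecule differs between probes, so levels of different miRNAs are not ranked. In limma with all 24 arrays and mouse as a block, 7 of 339 tested miRNAs were higher in zone 5 (2.06%) and 1 was lower (0.295%), 2.36% in all, at a Benjamini-Hochberg adjusted p under 0.05. All 8 differed in that direction in each of the 3 mice. At an unadjusted p under 0.05, 27 were higher and 12 lower. Over all tested miRNAs, 144 differences lay above 0 and 195 below, with a median of -0.06. The split of 7 higher and 1 lower was 6 and 0 without scaling or with scaling to control sequences, 7 and 0 with scaling to the summed signal or with quantile normalization, and 8 and 0, with miR-30c-5p added, with the percentile taken over the 6 arrays.

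The largest changes were changes in detection itself. miR-31-5p, a miRNA studied mainly in epithelia and tumours, was undetected on all 3 zone 4 arrays and had signals of 57.7, 23.3 and 47.6 on the zone 5 arrays of mice 1, 2 and 3. Mouse 2 was the lowest, and no zone 4 array reached detection. The file's own error of these zone 5 signals was 7.44% to 9.0%. The zone 5 mean of miR-31-5p was 34.8-fold above the lowest signals that any miRNA reached with a detection call in zone 4. This fold, like those given below for other miRNAs, is not a strict bound, because miRNAs need not share 1 limit of detection. The lowest signal at which miR-31-5p was called detected on any array of the study was 23.3, which is its zone 5 signal in mouse 2. Undetected signals were set to a floor, and a difference fitted against it moves with the floor chosen. With the floor at 1.12 it was 5.16 ± 0.21 with a limma adjusted p of 2.66e-12, and with a floor 4 times lower it was 7.16. Here and below, ± is the limma SE, estimated from all 24 arrays and not from the differences of the 3 mice. For miR-31-5p the standard deviation of those 3 differences was 0.69.

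The other arm of the same hairpin, miR-31-3p, was also undetected on the 3 zone 4 arrays, and its zone 5 signals were 12.1, 2.93 and 10.5. As for the 5p arm, mouse 2 was the lowest, and that value carried a file error of 31.2%. miR-31-3p was 6.25-fold above the lowest detected signals of zone 4, with a fitted difference against the floor of 2.68 ± 0.31 (limma adjusted p = 1.21e-05), or 4.68 with the lower floor. The lowest detected signal of miR-31-3p on any array of the study was that 2.93. In a fit of the 6 arrays alone its adjusted p was 0.0690.

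miR-125a-5p, a vertebrate relative of the worm timing miRNA lin-4, was undetected on every zone 4 array and had zone 5 signals of 18.3, 12.4 and 18.5. It was 14.1-fold above the lowest detected signals of zone 4, and the fitted difference against the floor was 3.85 ± 0.14 (limma adjusted p = 1.16e-12), or 5.85 with the lower floor. Its own lowest detected signal on any array of the study was 12.4, in zone 5. The other arm differed in detection. miR-125a-3p had a detection call on all 6, at 2.56, 4.59 and 5.05 in zone 4 and 1.79, 3.04 and 5.50 in zone 5, so the zones overlapped. Its difference was -0.33, with a 95% confidence interval of -1.24 to 0.58. The difference between the arms was not tested.

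let-7e-5p, from the hairpin beside that of miR-125a and a member of the let-7 family known for restraining growth genes such as Ras and Lin28, had a zone 4 signal of 2.39 in mouse 1 and was undetected in mice 2 and 3. Its zone 5 signals were 16.5, 11.2 and 15.2, all above that value, which carried a file error of 32.3%. The fitted difference was 3.29 ± 0.36 (limma adjusted p = 5.08e-06), or 4.62 with the lower floor (adjusted p = 0.0131). The third miRNA of this gene cluster, miR-99b-5p, was undetected on all 6 arrays, as was let-7e-3p.

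miR-802-5p, which is raised in the liver of obese mice, was undetected on the 3 zone 4 arrays. Its zone 5 signals were 7.08, 10.7 and 9.47. Unlike the arms of miR-31, it was lowest in mouse 1. It was 7.78-fold above the lowest detected signals of zone 4, and the fitted difference against the floor was 3.00 ± 0.17 (limma adjusted p = 3.17e-10), or 5.00 with the lower floor. Its own lowest detected signal on any array of the study was 7.08, in zone 5. miR-802-3p was undetected on all 6 arrays.

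Signals at the floor have no spread, so the SEs and p-values of both miR-31 arms, miR-802-5p and miR-125a-5p, undetected on 12 of 24 arrays, are smaller than detected signals would give. Those 12 arrays are the ones of zones 1 to 4, all in slide row 1. let-7e-5p was detected on 4 of these 12 and on all 12 of zones 5 to 8. All of these miRNAs met the filter of detection on 6 arrays only through the zones where they are high. Their calls are not independent of that filter. With the 6 arrays alone, miR-31-5p and miR-125a-5p had a limma adjusted p of 0.00151 each and let-7e-5p and miR-802-5p 0.00313 each. No miRNA was detected on all 3 zone 4 arrays and on 0 of the zone 5 arrays. In bulk RNA, fewer cells with a miRNA and less of it per cell cannot be told apart.

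**Figure D1:**
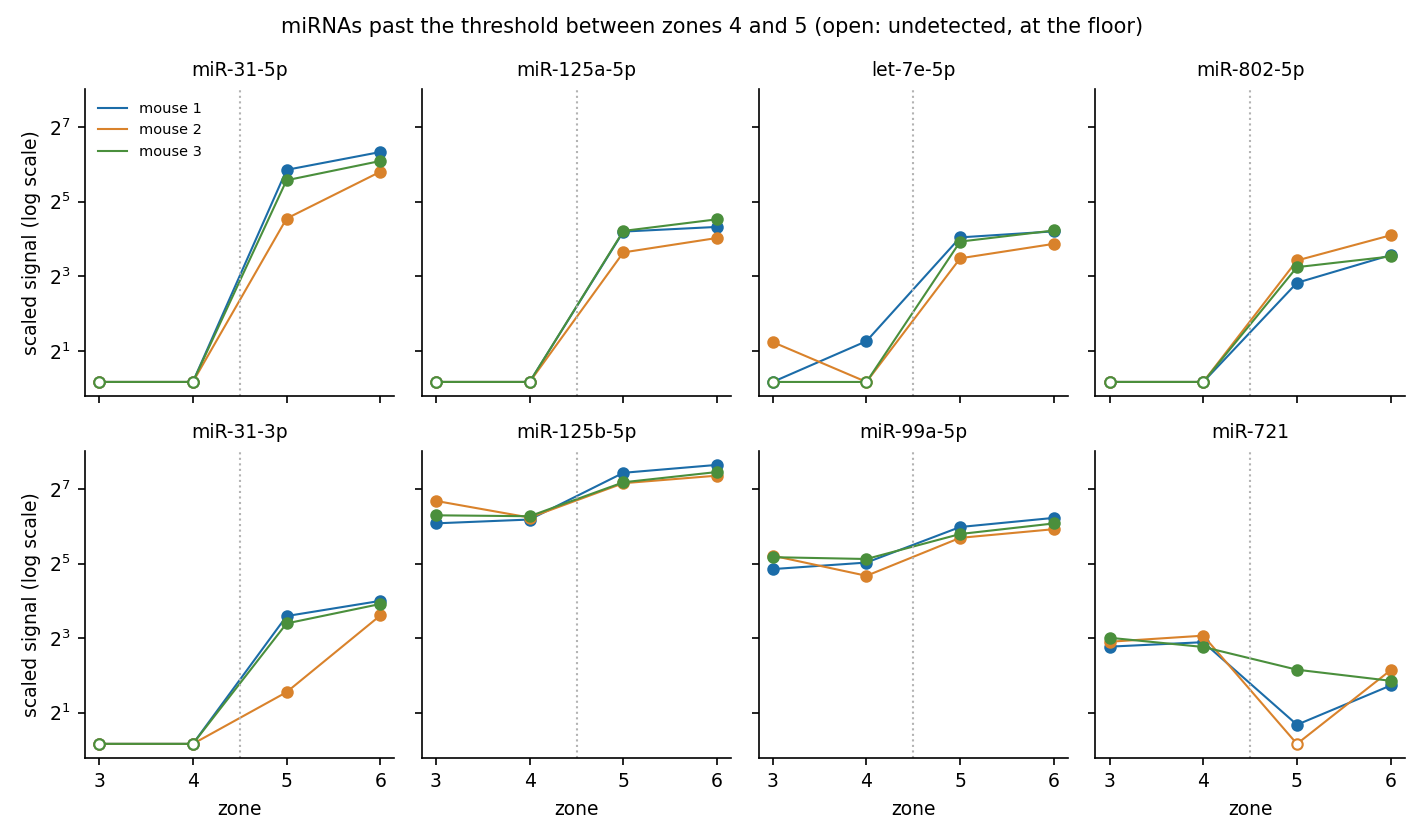
Scaled signal (vertical axis, log2 scale) of the 8 miRNAs that passed the test, in zones 3 to 6 (horizontal axis), 1 line per mouse; open points are arrays on which the miRNA was undetected, drawn at the floor of 1.12. The dotted line marks the change from zone 4 to zone 5, where 7 of the 8 rise in all 3 mice and miR-721 falls.

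Among miRNAs detected on all 6 arrays, miR-125b-5p and miR-99a-5p passed the test. miR-125b-5p, the seed partner of miR-125a-5p, had zone 4 signals of 72.5, 75.1 and 77.0 and zone 5 signals of 173, 142 and 145. The zones did not overlap. It was 2.04-fold higher in zone 5 (95% confidence interval 1.62 to 2.56), a log2 difference of 1.03 ± 0.16 (SE) with a limma adjusted p of 0.000272. Without mouse 1 the adjusted p was 0.0612, at a difference of 0.92.

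miR-99a-5p, known for repressing mTOR, had zone 4 signals of 32.6, 25.5 and 34.8 and zone 5 signals of 63.1, 51.6 and 55.4, again without overlap. It was 1.84-fold higher (1.40 to 2.42), a difference of 0.88 ± 0.19 with a limma adjusted p of 0.0100. Without mouse 1 or mouse 3 the adjusted p was 0.171 or 0.113, and with the 6 arrays alone it was 0.705, against 0.417 for miR-125b-5p. miR-100-5p, which differs from miR-99a-5p at 1 base, was measured at 3.65, 3.38 and 4.45 in zone 4 and 6.87, 6.07 and 6.16 in zone 5. These did not overlap either, but the difference of 0.74 ± 0.31 did not pass (limma adjusted p = 0.340). How much of either signal the other's probe reads was not tested.

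The miRNA that was lower in zone 5 was miR-721, which has the seed of the miR-130 family. Its signals were 7.42, 8.37 and 6.79 in zone 4. In zone 5 they were 1.60 in mouse 1, undetected in mouse 2 and 4.45 in mouse 3, so the zones did not overlap, but the zone 5 arrays were spread over a wider range than those of zone 4. The fitted difference was -1.91 ± 0.48 (limma adjusted p = 0.0464). This call was the least stable of the 8, with an adjusted p of 0.309 without mouse 1, 0.666 without mouse 2 and 0.0203 without mouse 3. miR-130a-3p, which shares its seed, had a difference of 0.04 ± 0.15, whose sign turned with scaling to the summed signal, quantile normalization or the percentile over the 6 arrays.

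The relatives of the called miRNAs show how far a seed or cluster moved together. The CCCUGAG seed of miR-125a-5p and miR-125b-5p is also carried by miR-351-5p, miR-6394 and miR-6367, all undetected on the 6 arrays. In the let-7 family, 1 of 9 tested members was called, against 2.06% of all tested miRNAs. The other 8 had differences of 0.09 to 0.49, none past the test. let-7g-5p had the largest of these, with signals of 437, 248 and 467 in zone 4 and 581, 528 and 455 in zone 5, an overlap, and a 95% confidence interval of 0.07 to 0.90. All 9 differences were above 0 in this fit, although with quantile normalization those of let-7b-5p and let-7i-5p were below 0 and that of let-7c-5p was 0. In mouse 3 all 8 relatives of let-7e-5p were lower in zone 5, from -0.04 (let-7g-5p) to -0.30 (miR-98-5p). let-7a-5p, which is 1 base from let-7e-5p, had signals of 619, 464 and 760 on the zone 4 arrays, where let-7e-5p was undetected in mice 2 and 3. The difference between let-7e-5p and its relatives was not tested.

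**Figure D2:**
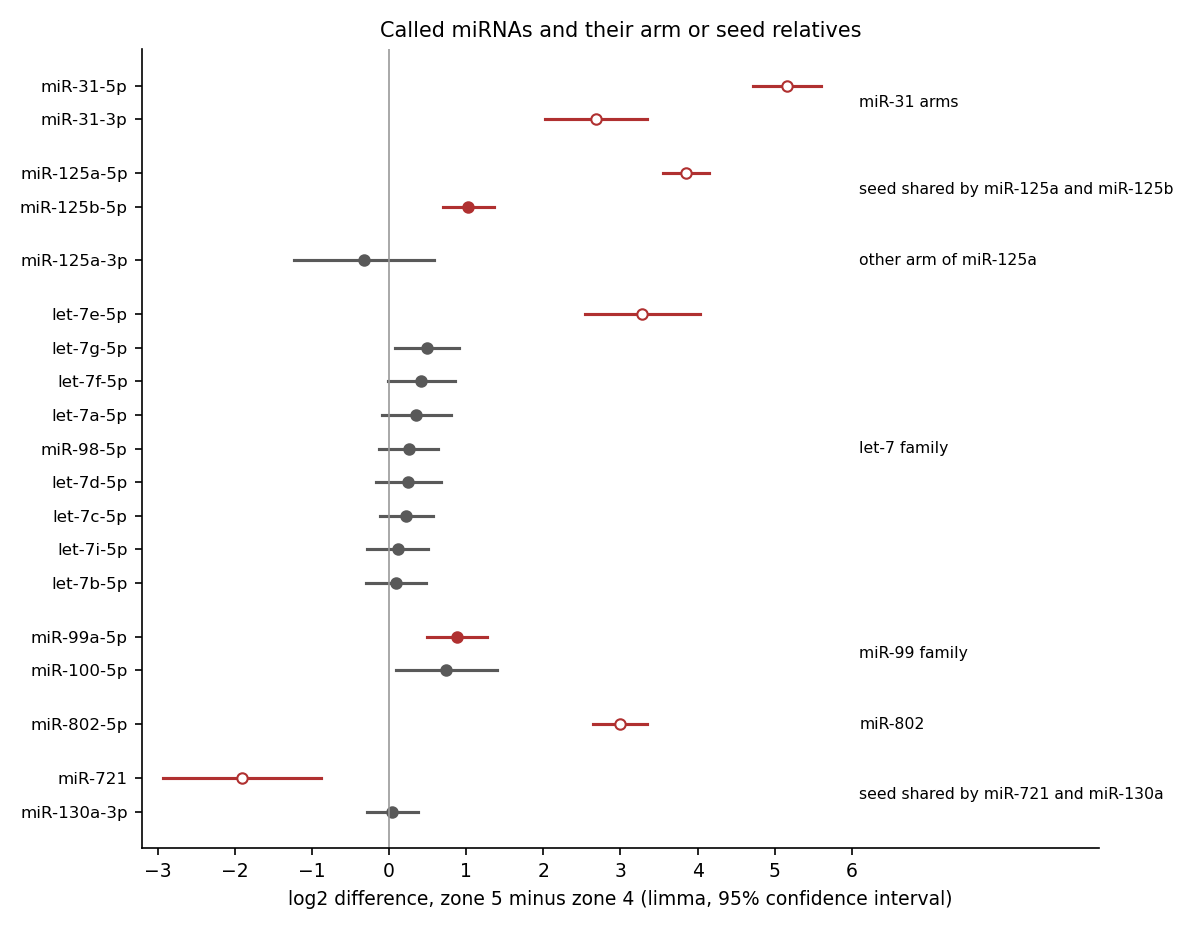
Log2 difference of zone 5 over zone 4 (horizontal axis) with its 95% confidence interval from limma, for the called miRNAs (red) and their arm or seed relatives (grey); open points had at least 1 array at the floor. let-7e-5p stands at 3.29 and its 8 relatives lie between 0.09 and 0.49.

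The step at the midline was set against the other 6 steps between neighbouring zones, all of which stay within a slide row. In limma, 6 of 339 miRNAs (1.77%) had a step to zone 5 above the mean of the other steps and 0 had one below it, with 22 and 13 at an unadjusted p under 0.05. The 6 were miR-31-5p, exceeding that mean by 4.99 ± 0.25 (adjusted p = 6.34e-11), its other arm miR-31-3p by 2.46 ± 0.37, miR-802-5p by 2.87 ± 0.20, let-7e-5p by 3.21 ± 0.42, and the seed partners miR-125a-5p and miR-125b-5p by 3.80 ± 0.17 and 0.97 ± 0.18 (adjusted p = 0.00347 for the last). For both miR-31 arms, miR-802-5p and miR-125a-5p the steps between zones 1 and 4 were 0, with every signal at the floor. This test reuses the zone 5 and zone 4 values of the first test and is not independent of it. miR-99a-5p and miR-721 did not pass, with excesses of 0.81 ± 0.22 and -2.00 ± 0.57 and limma adjusted p of 0.0943 and 0.116. The call of miR-125b-5p was lost without mouse 1 or without mouse 3, as was that of miR-31-3p, which left 4 in each case. miR-125b-5p also lost it without scaling (adjusted p = 0.188) and with the summed signal (0.0631), and let-7e-5p with a floor 4 times lower (0.0744). miR-99a-5p gained it with eBayes trend and robust (0.0426) and with a correction for GC (0.0237). Without mouse 3, 3 miRNAs had a step below the mean, namely miR-721, miR-30c-1-3p and miR-7070-5p.

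The 7 miRNAs called higher also had a higher mean in zone 6 than in zone 5, without passing that test. The step from zone 5 to zone 6 was 0.75 for miR-31-5p (limma adjusted p = 0.240), 0.99 for miR-31-3p (0.325) and 0.57 for miR-802-5p (0.240). For miR-125b-5p the other 6 steps ran from -0.12 to 0.23, and for miR-99a-5p from -0.14 to 0.25. miR-721 turned back by 0.91 between zones 5 and 6 (limma adjusted p = 0.780), to a mean log2 signal of 1.91, still under the 2.91 of zone 4. Of the other steps, that from zone 5 to zone 6 had 1 call, miR-149-5p, higher by 1.17 ± 0.20 (limma adjusted p = 0.00918), and the remaining 5 had 0. miR-149-5p was at the floor in zone 5 of mice 1 and 2 and on all 12 arrays of zones 1 to 4. Its difference thus moves with the floor chosen, and its SE is smaller than detected signals would give. The median size of a difference was 0.246 at the midline and 0.118 to 0.204 at the other steps.

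Since the slide row changes at the midline, the control sequences on the arrays were compared in the same way. Of 21 control sequences, 10 were detected on any of the 6 arrays, and the blank and negative controls were undetected throughout. On the scale used for miRNAs, the median control difference of zone 5 over zone 4 was 0.25 in mouse 1, 0.12 in mouse 2 and 0.03 in mouse 3. The 5 controls detected on all 24 arrays had differences of -0.40 to 0.29. All detected controls together ran from -0.97 to 1.42, and both ends were miRNABrightCorner30, whose sign changed between mice. Without it the range was -0.40 to 0.57. The differences of miR-802-5p, let-7e-5p, miR-125a-5p and miR-31-5p within mice, 2.66 to 5.69, all lay above every control. Those of miR-125b-5p (0.91 to 1.25), miR-99a-5p (0.67 to 1.02) and, in mouse 2, miR-31-3p (1.39) lay above every control but miRNABrightCorner30. For miR-721, mouse 3 differed by -0.61, which lay between the lowest control and the lowest of the others. The controls are brighter than most of these miRNAs, and an effect of slide row on dim miRNAs was not tested. The called miRNAs were selected by their difference, so their place outside the controls is not a separate test. Some uncalled miRNAs detected on all 6 arrays also lay above every control in 1 mouse. In mouse 1 miR-669f-3p differed by 2.08 and miR-574-3p by 1.92, though neither lay above every control in mice 2 and 3. Uncalled miRNAs also lay below every control, some in mice 1 and 2 alike. In these mice miR-714 differed by -1.41 and -1.90 and miR-3472 by -1.37 and -2.60. In mouse 3 they differed by 0.23 and 0.12, within the range of the controls.

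**Figure D3:**
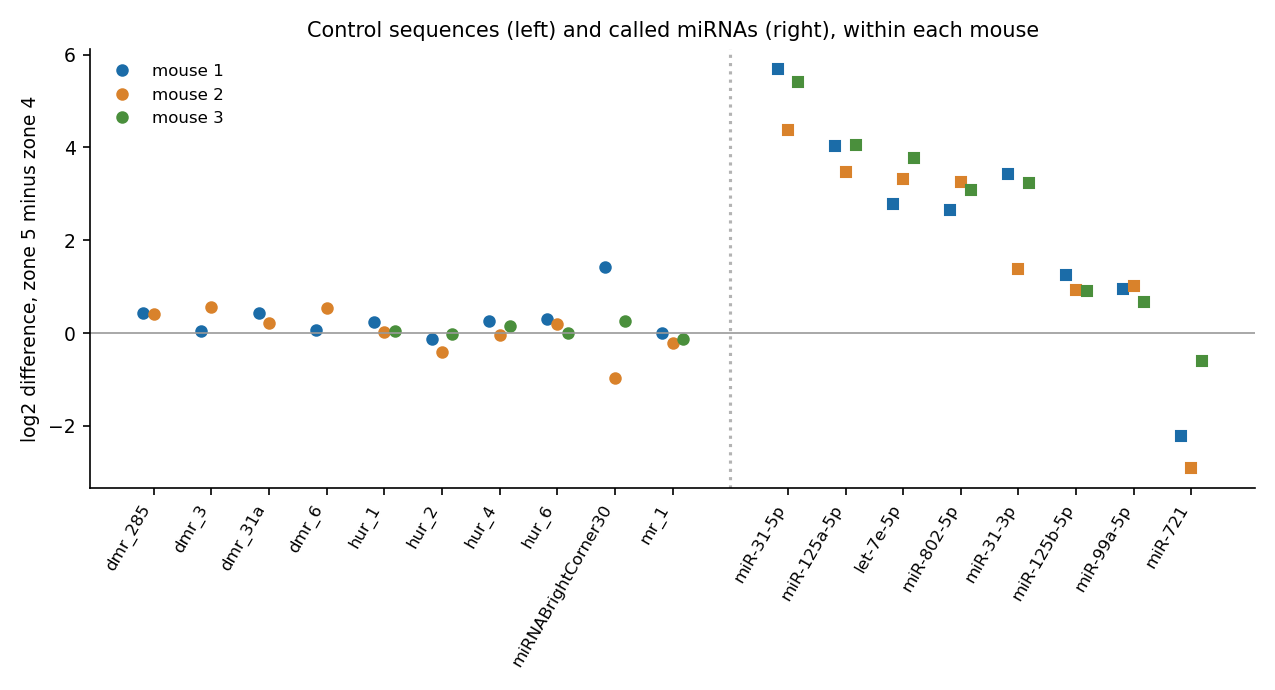
Log2 difference of zone 5 over zone 4 within each mouse (vertical axis) for the 10 detected control sequences (circles, left) and the 8 called miRNAs (squares, right), coloured by mouse. Apart from miRNABrightCorner30 the controls lie between -0.40 and 0.57; the miRNAs called higher lie between 0.67 and 5.69.

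The arrays did not differ in one direction as a whole. The number of detected miRNAs was 295, 313 and 289 in zone 4 and 252, 278 and 368 in zone 5, lower in mice 1 and 2 and higher in mouse 3 (exact paired permutation test, two-sided p = 1, where 3 pairs allow no p below 0.25). The summed signal ran from 65600 to 115721 over the 6 arrays (exact p = 0.75). Of 1881 miRNAs on the array, 216 were detected on all 6 arrays and 1472 on none. Detection on more zone 5 than zone 4 arrays was seen for 67 miRNAs and the opposite for 66. Of the 216, 32 were higher in zone 5 in all 3 mice (14.8%) and 17 lower (7.87%), while in 18 (8.33%) all zone 5 values lay above all zone 4 values and in 3 (1.39%) below, namely miR-7036a-5p (-0.32 ± 0.18), miR-3535 (-0.35 ± 0.23) and miR-3620-5p (-0.54 ± 0.27), none of them past the test.

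None of the 13 hepatocyte-abundant miRNAs tested passed. Of them 11 had a difference above 0, against 144 of 339 tested miRNAs, and their median was 0.35, against -0.06. In mouse 3 several went the other way, among them let-7a-5p (-0.17), miR-192-5p (-0.22), miR-194-5p (-0.13) and miR-22-3p (-0.32). The 67 miRNAs lowest in GC content moved likewise, with medians of 0.53 in mouse 2 and -0.20 in mouse 3, and the part of GC in this list was not tested. miR-122-5p, which makes up much of the miRNA pool of a hepatocyte, had signals of 10643, 8018 and 10578 in zone 4 and 13600, 12306 and 10882 in zone 5, and a difference of 0.34 ± 0.16 (limma adjusted p = 0.390) that was 0 with quantile normalization. Its zones did not overlap, but mouse 3 differed by 0.04 alone. miR-122-3p differed by 0.70 ± 0.20 (limma adjusted p = 0.106), from 38.4, 29.7 and 71.2 to 68.6, 70.2 and 72.0. miR-21a-5p, which is raised in growing and injured liver, had signals of 976, 514 and 848 in zone 4 and 1606, 840 and 1059 in zone 5. These overlapped between mice and were higher in zone 5 in each mouse, with a difference of 0.58 ± 0.19 (limma adjusted p = 0.160).

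In the miR-30 family 0 of 9 were called, against 2.36% of all tested miRNAs. Of these 9, 8 differences were above 0, against 144 of 339 tested, and the median was 0.38, against -0.06. The member below 0 was miR-30c-1-3p (-0.62). miR-30c-5p, which lowers the lipid transfer protein Mttp, came closest to the threshold of all uncalled miRNAs named here. Its signals were 201, 211 and 293 in zone 4 and 332, 372 and 321 in zone 5, without overlap, and its difference was 0.56 ± 0.15 (limma adjusted p = 0.0512). The difference was 0.13 in mouse 3, against 0.72 and 0.82 in mice 1 and 2. miR-30c-5p passed in 7 alternatives, with adjusted p from 0.00803 to 0.0493: the percentile over the 6 arrays, detection on at least 1 array or on at least 3 of 6, the lower floor, eBayes trend and robust, and both fits of miRNAs with a sequence. miR-34a-5p, a target of p53, differed by 0.55 ± 0.23 and miR-466f-3p by 0.66 ± 0.27, neither past the test. The same held on the other side for miR-290a-5p (-0.92 ± 0.38), miR-7045-5p (-0.63 ± 0.29), miR-3620-5p (-0.54 ± 0.27), miR-483-5p (-0.53 ± 0.36), miR-6538 (-0.50 ± 0.27) and miR-6988-5p (-0.41 ± 0.41), which were lower in zone 5 in all 3 mice.

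In the pathway lists calls are read beside the 2.06% of all tested miRNAs called higher and their median of -0.06. The 8 tested members of the miR-99, let-7 and miR-125 clusters had 4 calls, all higher, with a median of 0.81. The list of Wnt and beta-catenin miRNAs had 1 call of 6, miR-31-5p, and a median of 0.47. The insulin and glucose list had 1 of 11 and the cholesterol and lipid list 1 of 10, in both miR-802-5p, with medians of 0.14 and 0.25. None passed of 5 hypoxia miRNAs, of 9 from the miR-17 to miR-92 clusters, of 4 miR-29 miRNAs, of 3 from the miR-192 and miR-194 cluster or of 3 from the Dlk1-Dio3 cluster. Their medians were 0.14, 0.05, 0.12, 0.31 and -0.24.

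Markers of the labelled cell type were present on both sides of the midline. miR-192-5p and miR-194-5p, liver miRNAs like miR-122-5p, were detected on all 6 arrays. Of the miRNAs listed for other liver cells, none of 3 erythroid, 5 biliary, 5 stellate cell or 6 leukocyte miRNAs was detected on any of the 6. Of the 2 endothelial miRNAs, miR-126a-3p was detected on 2 arrays of each zone, at 11.0 and 2.77 in zone 4 (mice 1 and 2) and 4.62 and 2.04 in zone 5 (mice 1 and 3), with a difference of -0.57 ± 0.39.

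The remaining differences were correlated between mice 1 and 2 and not with mouse 3 in the same direction. Across 214 uncalled miRNAs detected on all 6 arrays, which share arrays and are not independent, the differences of mice 1 and 2 had a Pearson correlation of 0.513. Mouse 3 had -0.168 with mouse 1 and -0.341 with mouse 2. The differences also moved with the GC content of the mature sequence, known for 183 of the 216 miRNAs detected on all 6 arrays, called ones included. Spearman correlations with GC were -0.34 in mouse 1, -0.58 in mouse 2 and 0.07 in mouse 3. In mouse 2 the 67 miRNAs lowest in GC had a median difference of 0.53 and the 61 highest in GC -0.43, while in mouse 3 these medians were -0.20 and -0.07. The called miRNAs have GC contents of 31.8% (miR-802-5p) to 54.5% (miR-31-5p). With a correction for GC, chosen after seeing the data, all 7 remained higher and miR-721 lower. The fit of the same 286 miRNAs without the correction added miR-30c-5p, and the correction added miR-345-5p to that.

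**Figure D4:**
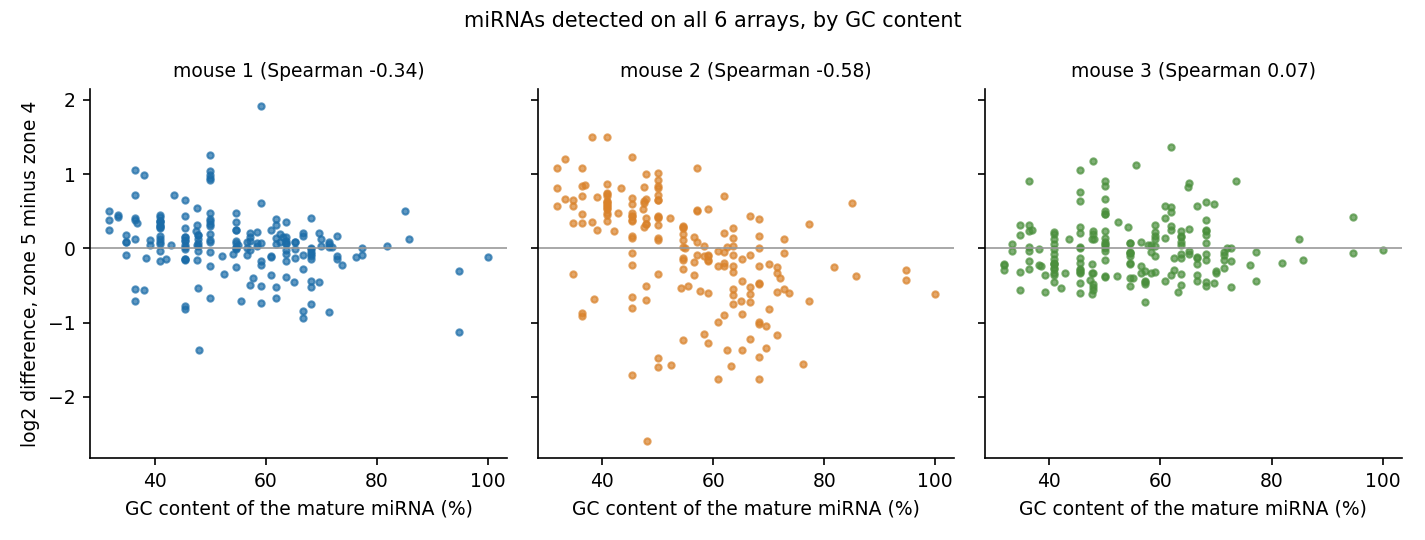
Log2 difference of zone 5 over zone 4 (vertical axis) against the GC content of the mature miRNA in percent (horizontal axis), 1 panel per mouse, 1 point for each of 183 miRNAs detected on all 6 arrays. Differences fall with GC in mouse 1 (Spearman -0.34) and mouse 2 (-0.58), and not in mouse 3 (0.07).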

How the data were processed

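The deposited values are intensity values, 1 total gene signal per miRNA and array with its error. Per the submitters' processing notes they come from Agilent Feature Extraction, whose version is not given in the sources used here. Equally, the detection call is a deposited column, 1 or 0 per the file headers, and undetected miRNAs hold a signal of 0.1. The median error of detected signals on the 6 arrays was 11.2%. The number of arrays limits the precision.

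Arrays were scaled to a common 75th percentile, computed from the 198 miRNAs with a detection call on each of the 24. Undetected and dimmer signals were set to a floor of 1.12, the typical lowest scaled signal with a detection call (median of 24 arrays), and log2 was taken. A detection call on 6 or more of 24 arrays was required, which left 339 miRNAs. These were fitted with limma 3.58.1 (R 4.3.3) with zone and mouse as terms. Zone 5 minus zone 4, and that step minus the mean of the other 6, were tested two-sided with Benjamini-Hochberg adjustment at 0.05. The scripts were tested on simulated data without a detection floor, so differences fitted against the floor were not covered. Mouse numbers pair the arrays because each number is 1 animal. Deviations from the zone means correlated by 0.615, 0.435 and 0.086 within mice 1, 2 and 3, and by -0.546 to 0.185 between different mice. The value of mouse 3 lay within the range between different mice. Deviations from a zone mean cancel across its mice, so a positive correlation within mice lowers those between mice. That range is therefore not a neutral reference. Each mouse had a slide of its own, so animal and slide cannot be told apart here. No 2 arrays were identical. Of the tested miRNAs, 286 had a RefSeq sequence.

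Named miRNAs were those past either test, those detected on all arrays of 1 zone and none of the other, the 6 largest and 6 most negative uncalled differences of 1 sign in all mice among miRNAs detected on all 6 arrays, arm, cluster and seed relatives, and at most the brightest pair of tested members of each of 18 lists. miR-137-3p, miR-149-5p, miR-30c-1-3p, miR-7070-5p, miR-345-5p, miR-3535, miR-7036a-5p, miR-669f-3p, miR-574-3p, miR-714 and miR-3472 lie outside this rule and were chosen with their values known. The comparison and lists were chosen with earlier results of these data known. Figures were drawn with matplotlib 3.10.9.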

Additional observations from a re-analysis of the deposited data

Results flagged for a closer look

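The control sequences dmr_285, dmr_3, dmr_31a and dmr_6, which lie outside the miRNA comparison, were each detected on 4 of the 6 arrays, both zones of mice 1 and 2, and on no array of mouse 3. A further 70 miRNAs were detected on at least 1 of the 6 arrays but on too few of the 24 to be tested. Of these, 15 were detected in zone 4 alone, 42 in zone 5 alone and 13 in both, and 37 were detected on the zone 5 array of mouse 3 and on no other of the 6.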

How the results depend on the processing

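In zone 5 against zone 4, let-7e-5p, miR-802-5p, miR-125a-5p and miR-31-5p passed in all 16 alternatives in which they were tested, miR-31-3p in 15 of 16, miR-125b-5p in 15 of 17, miR-99a-5p in 12 of 17 and miR-721 in 6 of 16. With no replicate block (mouse left out of the fit), the counts were again 7 higher and 1 lower, the same 8 miRNAs. With the 6 arrays alone and the replicate block, 4 were higher and 0 lower, and only 2 residual degrees of freedom remain per miRNA. With miRNAs detected on all 24 arrays, 198 were tested and 2 were higher, 0 lower and 1 had a step above the mean of the others, since 5 of the called miRNAs leave the test. The lower count was also 0 without scaling, with the summed signal, quantile normalization, scaling to control sequences, the percentile over the 6 arrays, miRNAs detected on at least 1 array, and a floor 4 times lower. Leaving out each mouse gave 5 to 7 higher, 0 to 3 lower, 4 to 6 steps above the mean of the others and 0 to 3 below it. The median control difference was 0.0389 to 0.214 without 1 mouse. Quantile normalization was not run on control sequences.

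Single miRNAs were followed over the alternatives for 43 named miRNAs only, and sign changes of other tested miRNAs are not listed. Among the 43, small uncalled differences changed sign, and the cause was not tested. With the summed signal these were let-7b-5p (-4.5e-05) and miR-130a-3p (-0.044). With quantile normalization they were let-7b-5p (-0.057), let-7i-5p (-0.052), miR-130a-3p (-0.029), miR-194-5p (-0.14), miR-29c-3p (-0.13) and miR-92a-3p (-0.018), while let-7c-5p and miR-122-5p were 0. With the percentile over the 6 arrays it was miR-130a-3p (-0.014), and with the GC correction let-7b-5p (-0.024), let-7i-5p (-0.055), miR-130a-3p (-0.12), miR-29c-3p (-0.11) and miR-98-5p (-0.018). Over the fits that leave out 1 mouse the differences ran from -0.062 to 0.27 for let-7b-5p, -0.15 to 0.29 for let-7i-5p, -0.12 to 0.25 for miR-130a-3p, -0.12 to 0.18 for miR-19b-3p, -0.11 to 0.13 for miR-22-3p, -0.076 to 0.29 for miR-29c-3p, -0.47 to 0.25 for miR-494-3p, -0.10 to 0.30 for miR-92a-3p and -0.028 to 0.53 for miR-98-5p.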

Other observations

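The pair miR-149-5p and miR-137-3p had no detection call in zone 4, and in zone 5 had one in mouse 3 alone, at scaled signals of 2.53 and 5.47. Of the 24 arrays of the study, 10 gave a call for each, all in zones 5 to 8. The zone 5 array of mouse 3 also had the highest number of detected miRNAs of the 6, 368.

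Other neighbouring steps also moved with GC content. In mouse 2 the Spearman correlation across miRNAs was 0.64 from zone 3 to zone 4, opposite in sign to the -0.58 of the next step, with which it shares the zone 4 array. From zone 5 to zone 6 it was -0.43, -0.29 and -0.37 in mice 1, 2 and 3.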
